A study of Mus musculus with 18 samples.

Results

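The unfolded protein response genes described here are 10 mouse genes chosen by name. They are the folding factors of the endoplasmic reticulum (ER) Hspa5, Hsp90b1, Pdia4, Sdf2l1 and Dnajb9, the degradation factor Herpud1, and the regulators Xbp1, Atf4, Ddit3 and Trib3. Of the 41325 entries in the deposited count table, 9 carried the name of a member. Ddit3 was present only as 2 entries with a suffix, Ddit3_1 and Ddit3_2, which are described separately and not counted among the 9. The 9 members and both Ddit3 entries passed the filter on low counts, which left 19941 genes.

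RNA came from cumulus cells, which enclose the oocyte, and from mural granulosa cells, which form the follicle's inner wall, in ovaries of wild-type mice. Each cell type was taken at 0, 4 and 12 h after hCG (human chorionic gonadotropin, the hormone given to trigger ovulation), with 3 libraries in each of the 6 groups. Every group shared the WT genotype and the hCG treatment, the 0 h groups being the baseline. Strain, age, any priming of the mice and the number of animals behind a library were not given by any source used here. The p-values below therefore rest on how far these libraries differ from each other, which may be technical. Groups follow the sample titles, because the cell-type field reads mural for 8 of the 9 libraries titled as cumulus and is blank for 1.

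Secreted and membrane proteins fold in the ER with the help of chaperones. When unfolded proteins accumulate there, 3 sensors respond. Ern1 (IRE1) splices the Xbp1 mRNA so that it encodes an active transcription factor, Eif2ak3 (PERK) slows translation while favouring that of Atf4, and Atf6 is cut to release a transcription factor. Their targets are chaperones, the machinery that returns misfolded proteins to the cytosol for degradation, and, in prolonged stress, the death-promoting factor CHOP encoded by Ddit3. Around ovulation cumulus cells secrete a hyaluronan-rich matrix and mural cells begin to turn into luteal cells. Gene counts show neither Xbp1 splicing nor translation.

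Libraries held 32.2 to 47.9 M counts. Lhcgr, the luteinizing hormone receptor that marks mural cells, averaged 8.52, 2.6 and 4.02 CPM (counts relative to the TMM-scaled library total) in cumulus cells at 0, 4 and 12 h, and 662, 339 and 547 CPM in mural cells. The mural marker Cyp11a1 rose in cumulus cells, with averages of 11.1, 19.2 and 356 CPM, against 735, 2117 and 4425 CPM in mural cells. Nppc, also a mural marker, averaged 36.4, 7.81 and 0.339 CPM in cumulus and 125, 11.3 and 5.42 CPM in mural cells. The summed level of 4 cumulus markers was 1226 to 1465 CPM in cumulus and 998 to 1086 CPM in mural libraries at 0 h. At 4 h it was 278 to 622 CPM in cumulus and 626 to 807 CPM in mural libraries. At 12 h it was 173 to 196 CPM in cumulus and 376 to 574 CPM in mural libraries. That list therefore did not mark the cumulus libraries at 4 or 12 h. The sum of 15 oocyte markers ran from 460 to 2224 CPM in cumulus libraries at 0 h, from 1318 to 8087 CPM at 4 h and from 6.79 to 12.6 CPM at 12 h, where Zp1 and Figla had no count. In mural libraries it ran from 143 to 676 CPM. Markers of plasma and B cells, which are rich in these genes, summed to at most 1.84 CPM in every library. Of the 8 theca and stroma markers, all 6 besides Star and Pdgfra had their highest mean in mural cells at 0 h. In mural cells at 0, 4 and 12 h the theca enzyme gene Cyp17a1 averaged 114, 27.2 and 4.73 CPM, and the collagen gene Col1a1 317, 230.1 and 155 CPM. Those 6 and Pdgfra averaged at most 4.34 CPM in every cumulus group. Star, a steroid synthesis gene that granulosa cells also express after hCG, took most of the list's sum at 4 and 12 h, with averages of 3.72, 133 and 348 CPM in cumulus cells at 0, 4 and 12 h, and 21.6, 3113 and 1369 CPM in mural cells. Endothelial and leukocyte markers summed to at most 201 and 46 CPM, both in cumulus cells at 12 h. In cumulus cells the endothelial sum was 16.5 to 22.6 CPM at 0 h and 164 to 201 CPM at 12 h, and the leukocyte sum 5.81 to 21.4 and 40.4 to 46 CPM. Cdh5 (164 CPM) and Cd52 (31.4 CPM) took most of these 12 h sums. Kdr also rose, from 0.386 to 20.6 CPM, while Pecam1, Tek, Vwf and Emcn averaged less than at 0 h. Among the other leukocyte markers Cd68, Csf1r, S100a8 and S100a9 averaged more than at 0 h, and Ptprc, Adgre1 and Lyz2 less. Erythroid markers summed to at most 734 CPM, in mural cells at 12 h. Their part in the results was not tested. Mitochondrially encoded genes took 8.49 to 12.8% of counts in cumulus cells at 0 h, 4.35 to 6.2% at 4 h and 2.52 to 2.98% at 12 h, and 3.54 to 7.57% in mural cells. Cumulus 4 h replicate 3 had the highest oocyte sum and cumulus 0 h replicate 1 the highest mitochondrial share, and the members' counts in comparisons that use them are given also without both.

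In bulk RNA, fewer cells of a type and less RNA per cell cannot be told apart. Changes are log2 changes ± SE from edgeR's quasi-likelihood fit to the 18 libraries, and a gene is called when its Benjamini-Hochberg adjusted p over all genes tested is under 0.05.

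The promoters of 4 members are shown because the chaperone and degradation genes are textbook targets of the response, and they moved apart in these cells. Promoters of all 10 genes were found in RefSeq (GRCm38.p6), from 250 bases before the start to 50 after, and the 250 bases before the start are printed. Capitals mark matches, on either strand, to the ER stress element ERSE (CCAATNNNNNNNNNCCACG), to ERSE-II (ATTGGNCCACG) or to the ATF4 site CARE (TGATGNAA).
Hspa5, chr2:34771840-34772089, plus strand: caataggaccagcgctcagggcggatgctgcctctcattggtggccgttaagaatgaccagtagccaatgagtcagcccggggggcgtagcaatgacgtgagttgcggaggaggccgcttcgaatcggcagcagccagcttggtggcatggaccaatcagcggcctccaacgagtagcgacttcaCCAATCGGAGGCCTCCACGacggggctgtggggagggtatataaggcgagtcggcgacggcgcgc
Hsp90b1, chr10:86705445-86705694, minus strand: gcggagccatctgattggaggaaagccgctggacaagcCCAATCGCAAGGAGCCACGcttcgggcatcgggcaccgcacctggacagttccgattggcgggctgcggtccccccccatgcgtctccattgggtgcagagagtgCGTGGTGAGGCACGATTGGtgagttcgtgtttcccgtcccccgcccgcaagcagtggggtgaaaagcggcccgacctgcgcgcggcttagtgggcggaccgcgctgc
Herpud1, chr8:94386179-94386428, plus strand: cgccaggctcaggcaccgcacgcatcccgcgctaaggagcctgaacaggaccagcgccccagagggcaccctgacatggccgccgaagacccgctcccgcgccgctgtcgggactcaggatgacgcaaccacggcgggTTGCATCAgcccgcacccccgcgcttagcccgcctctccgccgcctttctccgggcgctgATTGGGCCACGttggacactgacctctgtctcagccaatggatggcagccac
Pdia4, chr6:47813513-47813762, minus strand: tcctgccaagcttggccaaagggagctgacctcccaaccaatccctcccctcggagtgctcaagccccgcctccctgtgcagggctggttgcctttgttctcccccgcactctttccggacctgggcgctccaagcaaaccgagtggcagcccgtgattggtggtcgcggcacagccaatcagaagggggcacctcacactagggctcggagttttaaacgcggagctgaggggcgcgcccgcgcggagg
Hspa5 held 1 ERSE match and Hsp90b1 held 2, against 0.119% of 32851 RefSeq mouse promoters with at least 1. Herpud1 held an ERSE-II match, which 0.0365% of promoters had, and a CARE match, which 3.97% had. Trib3 held a CARE match past its start. Pdia4, Sdf2l1, Dnajb9, Xbp1, Atf4 and Ddit3 held none of these letters in this window, and the XBP1 site UPRE (TGACGTGG, in 0.676% of promoters) was in none of the 10. No match overlapped another. A match is a description of the letters, not a site shown to be bound. The motifs are known elements of this response and the genes its textbook targets. The shares of all promoters are therefore background, and the matches are not independent support.

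The ER chaperone genes parted between the cell types at 12 h. Hspa5 and Hsp90b1 fell in mural cells, Hsp90b1 rose in cumulus cells, and Pdia4 rose in both, most steeply in cumulus cells. At 0 h Hspa5, Hsp90b1 and Pdia4 were lower in cumulus than in mural cells, and at 12 h they were higher. With the oocyte marker sum as a covariate the 0 h difference of Hspa5 (-0.16) was not called, while those of Hsp90b1 (-0.38) and Pdia4 (-0.49) were. At 12 h the differences in that fit were 0.05, 0.18 and 0.22, and none was called. Sdf2l1 fell at 4 h in both cell types, and at 12 h its cumulus range again overlapped that of 0 h while its mural range lay below it. The oocyte marker sum was 6.79 to 12.6 CPM in the cumulus libraries of 12 h against 460 to 2224 CPM in those of 0 h, and with it as a covariate the cumulus changes of Hsp90b1 (-0.08) and Sdf2l1 (-0.57) had the other sign and were not called, while that of Pdia4 (1.88) was still called. No other group had sums near those of cumulus cells at 12 h, so that fit extrapolates there.

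Hspa5 (chromosome 2, 34771970 to 34777547, plus strand) encodes BiP, the main Hsp70-type chaperone of the ER lumen and the protein that holds the stress sensors inactive. In cumulus cells its level was 1799.8, 1417 and 1307 CPM at 0 h, 1700, 1932 and 1159 CPM at 4 h, and 2026, 1779 and 1903 CPM at 12 h. In mural cells it was 2269.8, 2099 and 1969.7 CPM at 0 h, 1897, 2198 and 2011 CPM at 4 h, and 1104, 1007 and 1153 CPM at 12 h. The 3 mural libraries of 12 h were the lowest of the 18, with cumulus 4 h replicate 3 just above them. In mural cells Hspa5 fell by 0.96 ± 0.16 from 0 to 12 h (adjusted p = 0.000105), a level 1.94-fold lower, and most of it came after 4 h (-0.9 ± 0.16 at 12 against 4 h, adjusted p = 0.000262). The change in cumulus cells at 12 h, 0.34 ± 0.16, was not called (adjusted p = 0.0773) and the ranges overlapped. Without cumulus 0 h replicate 1, the highest of its group, it was 0.49 (adjusted p = 0.0195).

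Hsp90b1 (chromosome 10, 86690209 to 86705509, minus strand) encodes GRP94, the Hsp90 of the ER, which folds integrins, Toll-like receptors and insulin-like growth factors. Its level in cumulus cells was 1455, 1206 and 1163 CPM at 0 h, 1519, 1672 and 1087 CPM at 4 h, and 2379, 2316 and 2309 CPM at 12 h. Its mural level was 2156, 2003 and 1857 CPM at 0 h, 2103, 2284 and 2104 CPM at 4 h, and 1364, 1256 and 1405 CPM at 12 h. The cumulus libraries of 12 h were the highest of the 18, and neither 12 h group overlapped its 0 h group. Hsp90b1 rose by 0.87 ± 0.14 in cumulus cells (adjusted p = 3.33e-05) and fell by 0.58 ± 0.14 in mural cells (adjusted p = 0.00269). Exons of other annotated genes, on both strands, overlap those of Hsp90b1, and no source used here gives the strand setting of the counting.

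Pdia4 (chromosome 6, 47796141 to 47813430, minus strand) encodes ERp72, a protein disulfide isomerase that forms and rearranges disulfide bonds. Levels in cumulus cells were 378, 306 and 285 CPM at 0 h, 386, 396 and 268 CPM at 4 h, and 2334, 2738 and 2218 CPM at 12 h. The mural levels were 599, 566 and 512 CPM at 0 h, 535, 514 and 514 CPM at 4 h, and 1239, 1385 and 1306 CPM at 12 h. Neither cell type changed detectably at 4 h (0.12 ± 0.14 in cumulus and -0.1 ± 0.14 in mural cells, adjusted p = 0.523 and 0.604), and both 12 h groups stood clear of their earlier libraries. At 12 h Pdia4 was 7.52-fold higher than at 0 h in cumulus cells (2.91 ± 0.15, adjusted p = 2.43e-11) and 2.34-fold higher in mural cells (1.23 ± 0.15, adjusted p = 1.9e-06). It was the member with the largest change in cumulus cells.

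**Figure D1:**
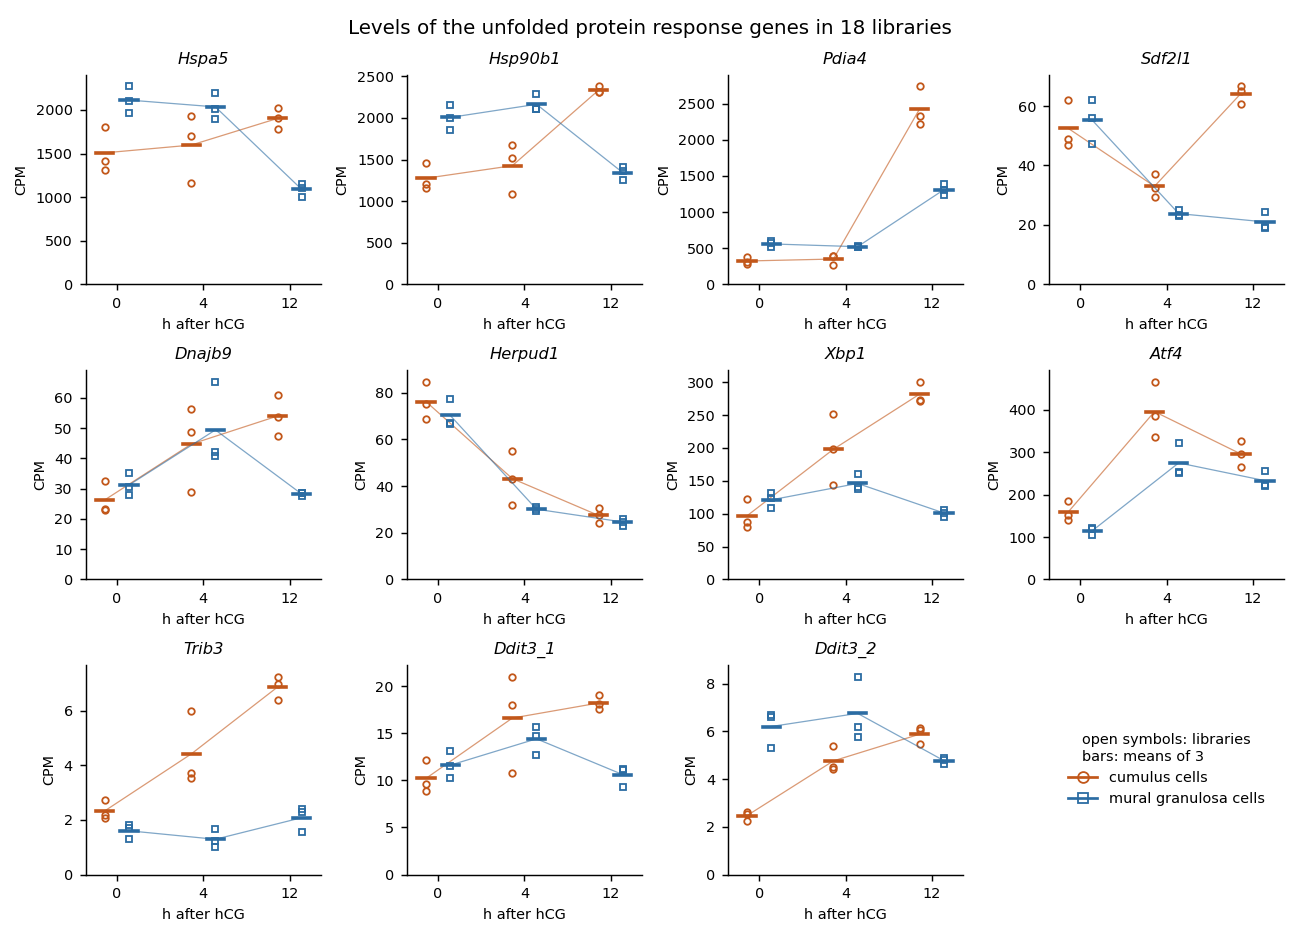
Level (CPM, linear axis from 0) of the 9 members and the 2 Ddit3 entries at 0, 4 and 12 h after hCG, with an open symbol for each library, a bar for the mean of 3, and cumulus cells (circles) left of mural granulosa cells (squares). Hspa5 and Hsp90b1 cross between the cell types by 12 h, Pdia4 climbs in both, and Herpud1 declines in both.

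The ratios between these genes within a library do not depend on scaling between libraries. Per kb of exon, Pdia4 stood to Hspa5 as 0.37, 0.381 and 0.385 in cumulus libraries at 0 h, 0.401, 0.361 and 0.407 at 4 h, and by 12 h as 2.03, 2.71 and 2.05. The mural ratios were 0.465, 0.475 and 0.458 at 0 h, 0.497, 0.412 and 0.45 at 4 h, and by 12 h 1.98, 2.43 and 2. Below 0.5 in the 12 libraries of 0 and 4 h, the ratio was at or above 1.98 in the 6 of 12 h, and the 12 h ranges of the cell types overlapped. Hsp90b1 relative to Hspa5 per kb was 0.848 to 0.983 in cumulus and 0.989 to 1.16 in mural libraries of 0 and 4 h, and 1.23 to 1.37 in cumulus and 1.28 to 1.31 in mural libraries at 12 h. These ratios show unequal change of the 3 genes, not that one of them stayed constant. Their level depends on the exon lengths used, and their fold change over time does not.

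**Figure D2:**
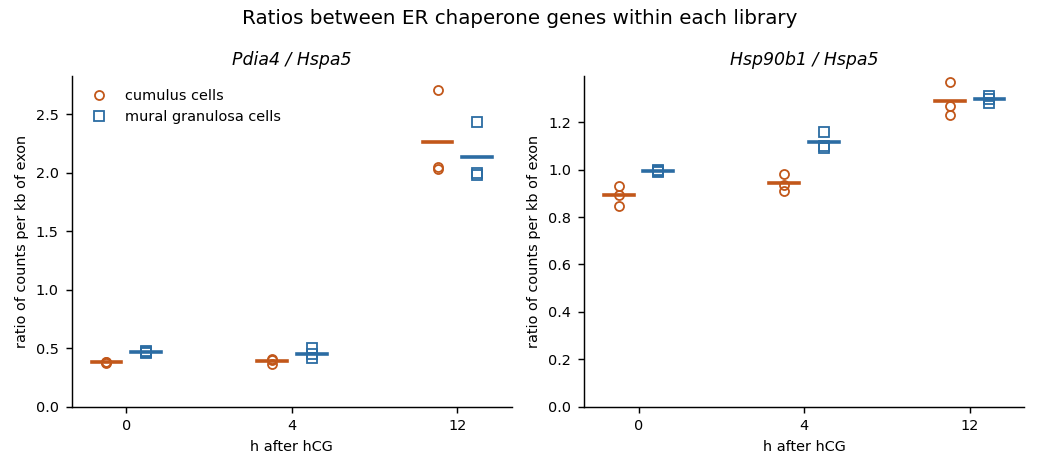
Ratio of counts per kb of exon, Pdia4 over Hspa5 (left) and Hsp90b1 over Hspa5 (right), in each library (open symbols) with group means (bars), by hours after hCG. Cumulus circles stand left of mural squares, and both ratios are highest at 12 h in both cell types.

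Sdf2l1 (chromosome 16, 17130138 to 17132383, minus strand) encodes an ER lumen protein that works with BiP and its J-domain partners. In cumulus cells it was at 61.9, 48.9 and 46.8 CPM at 0 h, 32.3, 37.2 and 29.3 CPM at 4 h, and 65.1, 60.8 and 66.6 CPM at 12 h. Mural levels stood at 62.1, 56.1 and 47.2 CPM at 0 h, 23.1, 23.4 and 25 CPM at 4 h, and 24.5, 19.1 and 19.2 CPM at 12 h. The ranges of the cell types overlapped at 0 h, and at 12 h the cumulus libraries were high again while the mural ones were not. At 4 h Sdf2l1 fell by 0.67 ± 0.13 in cumulus (adjusted p = 0.000431) and by 1.21 ± 0.14 in mural cells (adjusted p = 9.24e-07). From 4 to 12 h it rose by 0.96 ± 0.13 in cumulus cells (adjusted p = 8.35e-06), against -0.19 ± 0.13 in mural cells, which was not called (adjusted p = 0.329). Its cumulus change from 0 to 12 h, 0.29 ± 0.13, was not called (adjusted p = 0.0651), but without cumulus 0 h replicate 1 it was 0.43 (adjusted p = 0.0122).

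Dnajb9 (chromosome 12, 44205559 to 44210326, minus strand) encodes ERdj4, a J-domain partner of BiP that acts in degradation and restrains Ern1. Cumulus levels were 32.6, 23.3 and 23.1 CPM at 0 h, 48.8, 56.3 and 29 CPM at 4 h, and 53.6, 47.5 and 60.9 CPM at 12 h. Mural levels were 35.1, 30.7 and 27.9 CPM at 0 h, 42, 65.4 and 40.9 CPM at 4 h, and 28.4, 28.6 and 27.6 CPM at 12 h. The cumulus libraries of 12 h all lay above those of 0 h, where the mural ranges of those times overlapped, and cumulus 4 h replicate 3 lay within the cumulus 0 h range. Dnajb9 rose at 12 h in cumulus cells (1.04 ± 0.22, adjusted p = 0.000471), and at 4 h in cumulus (0.76 ± 0.22, adjusted p = 0.00754) and mural cells (0.66 ± 0.22, adjusted p = 0.0182). The cumulus call at 4 h was lost with voom (0.74, adjusted p = 0.067) and with only the groups compared in the fit (0.71, adjusted p = 0.0883). The mural call at 4 h was lost without mural 0 h replicate 2 (0.61, adjusted p = 0.0644) or 3 (0.56, adjusted p = 0.0749) and without mural 4 h replicate 2 (0.42, adjusted p = 0.147).

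Herpud1 (chromosome 8, 94386438 to 94395377, plus strand), an ER membrane protein of the degradation machinery, fell in both cell types. Its level in cumulus cells was 84.8, 75.1 and 68.6 CPM at 0 h, 42.9, 55 and 31.7 CPM at 4 h, and 30.8, 24.1 and 27.4 CPM at 12 h. The mural values were 77.5, 67 and 66.5 CPM at 0 h, 30, 29.3 and 31.1 CPM at 4 h, and 26.1, 23.1 and 24.5 CPM at 12 h. Both cell types stepped down at 4 h and were low at 12 h. Herpud1 fell by 1.47 ± 0.15 in cumulus cells (adjusted p = 1.8e-07) and by 1.52 ± 0.15 in mural cells (adjusted p = 2.65e-07) from 0 to 12 h, and the difference between those changes, 0.04 ± 0.21, was not called (adjusted p = 0.898). At 4 h it had fallen by 0.82 ± 0.15 in cumulus (adjusted p = 0.000215) and by 1.22 ± 0.15 in mural cells (adjusted p = 3.52e-06).

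Of the regulators, Xbp1 rose in cumulus cells, Atf4 rose in both cell types, and Trib3 rose in cumulus cells. With the oocyte marker sum as a covariate, the cumulus changes of Xbp1 (0.15), Atf4 (-0.12) and Trib3 (0.98) at 12 h were not called. Those at 4 h (1.26, 1.49 and 0.99) were still called. Xbp1 (chromosome 11, 5520659 to 5525893, plus strand) encodes the transcription factor of the Ern1 branch. In cumulus cells it was at 123, 87 and 80 CPM at 0 h, 199, 252 and 143 CPM at 4 h, and 301, 273 and 272 CPM at 12 h. The mural libraries held 132, 124 and 109 CPM at 0 h, 140, 161 and 137 CPM at 4 h, and 106, 94.7 and 101 CPM at 12 h. Each step in cumulus cells cleared the one before, whereas the mural libraries stayed between 94.7 and 161 CPM. Xbp1 rose by 1.03 ± 0.17 at 4 h (adjusted p = 8.54e-05) and by 1.54 ± 0.18 at 12 h (adjusted p = 5.68e-07) in cumulus cells. The mural changes from 0 h, 0.26 ± 0.17 at 4 h and -0.27 ± 0.17 at 12 h, were not called (adjusted p = 0.233 and 0.236), although the mural libraries of 12 h all lay below those of 0 h. The fall at 12 against 0 h was called with library totals (-0.44, adjusted p = 0.0163), the oocyte marker sum as a covariate (-0.35, adjusted p = 0.014), voom (-0.27, adjusted p = 0.0312) and only the groups compared in the fit (-0.27, adjusted p = 0.00867). From 4 to 12 h Xbp1 fell in mural cells by 0.54 ± 0.17 (adjusted p = 0.0219), a call lost without mural 4 h replicate 2 (-0.48, adjusted p = 0.0887) or without mural 12 h replicate 2 (-0.49, adjusted p = 0.0836) or 3 (-0.51, adjusted p = 0.0768).

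Atf4 (chromosome 15, 80255184 to 80257541, plus strand) encodes the transcription factor of the Eif2ak3 branch, which also responds to amino acid shortage. Cumulus levels were 185, 139.9 and 152 CPM at 0 h, 386, 467 and 336 CPM at 4 h, and 327, 265 and 297 CPM at 12 h. Mural levels were 122, 118 and 104 CPM at 0 h, 251, 321 and 253 CPM at 4 h, and 221, 255 and 223 CPM at 12 h. In both cell types the 4 h and 12 h libraries lay above those of 0 h with no overlap. Atf4 was 2.49-fold higher at 4 h in cumulus cells (1.32 ± 0.14, adjusted p = 5.58e-07) and 2.4-fold higher in mural cells (1.26 ± 0.14, adjusted p = 1.05e-06). At 12 h the rise was 0.9 ± 0.14 in cumulus (adjusted p = 2.49e-05) and 1.02 ± 0.14 in mural cells (adjusted p = 1.15e-05). The difference between the cell types' changes was 0.06 ± 0.2 at 4 h and -0.13 ± 0.2 at 12 h, neither called (adjusted p = 0.879 and 0.646).

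Trib3 (chromosome 2, 152337422 to 152344032, minus strand), a pseudokinase induced by ATF4 and CHOP, was scarce, with 30 to 245 counts per library. Cumulus levels were 2.07, 2.72 and 2.18 CPM at 0 h, 3.52, 5.98 and 3.73 CPM at 4 h, and 7.24, 6.98 and 6.37 CPM at 12 h. Mural levels were 1.82, 1.69 and 1.29 CPM at 0 h, 0.999, 1.65 and 1.23 CPM at 4 h, and 2.39, 2.29 and 1.57 CPM at 12 h. The 3 cumulus groups did not overlap each other, and the mural groups did. In cumulus cells Trib3 rose by 1.56 ± 0.27 at 12 h (adjusted p = 8.44e-05) and by 0.92 ± 0.27 at 4 h (adjusted p = 0.0098), the 4 h call being lost without cumulus 4 h replicate 2 (0.63, adjusted p = 0.0653), with voom (0.84, adjusted p = 0.0846) and with only the groups compared in the fit (0.87, adjusted p = 0.0941). The mural changes were not called (-0.3 ± 0.28 at 4 h and 0.38 ± 0.28 at 12 h, adjusted p = 0.415 and 0.306).

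Ddit3 is annotated as 2 nested gene models on chromosome 10 (127290774 to 127296288 and 127290829 to 127293753, plus strand) that share exons, and the files do not say which entry is which. Its exons also overlap those of Mars on the opposite strand. The counts are titled as unique gene reads, so reads on shared exons may also be missing. The values of Ddit3 are therefore uncertain. Ddit3_1 averaged 10.2 ± 1.73, 16.6 ± 5.21 and 18.2 ± 0.708 CPM in cumulus cells at 0, 4 and 12 h, and 11.6 ± 1.44, 14.4 ± 1.54 and 10.6 ± 1.08 CPM in mural cells (SD, n = 3 each). Ddit3_2 averaged 2.47 ± 0.201, 4.76 ± 0.524 and 5.88 ± 0.372 CPM in cumulus cells, and 6.2 ± 0.773, 6.75 ± 1.35 and 4.77 ± 0.124 CPM in mural cells (SD, n = 3 each). Both entries rose in cumulus cells at 12 h, by 0.83 ± 0.2 for Ddit3_1 (adjusted p = 0.00133) and 1.25 ± 0.19 for Ddit3_2 (adjusted p = 1.97e-05), and neither was called in mural cells at 12 against 0 h. With the oocyte marker sum as a covariate Ddit3_1 was still called in cumulus cells (1.65, adjusted p = 0.0211) and Ddit3_2 was not (1.31, adjusted p = 0.0776). Summed, a reading chosen after the data were seen, they rose by 0.92 ± 0.17 in cumulus cells at 12 h (adjusted p = 0.000132), against -0.21 ± 0.17 in mural cells (adjusted p = 0.35).

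**Figure D3:**
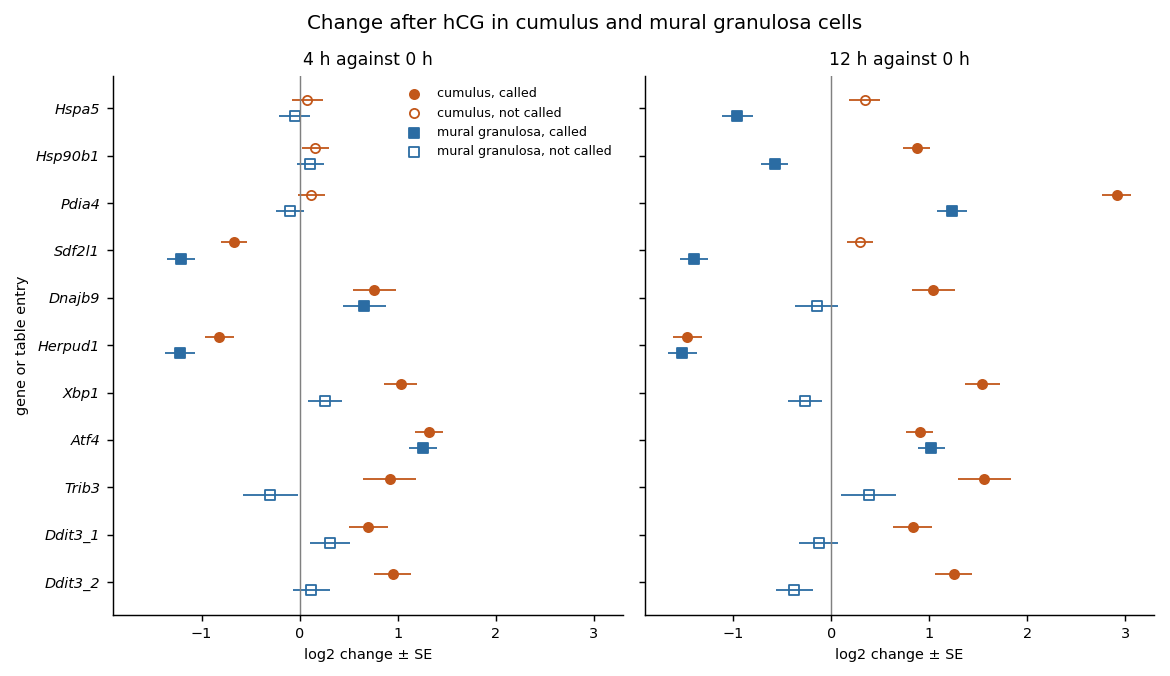
Log2 change ± SE against 0 h, at 4 h (left) and 12 h (right), of the 9 members and the 2 Ddit3 entries, with cumulus cells (circles) above mural granulosa cells (squares). Filled symbols are called at an adjusted p under 0.05. At 12 h the circles of 7 of the 9 members, all but Herpud1 and Atf4, lie clearly to the right of the squares.

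Among the 9 members the calls were spread as follows, beside the share of all 19941 genes called in the same direction. In cumulus cells 4 were higher at 4 than at 0 h (25% of all genes) and 2 lower (22.8%), 6 were higher at 12 than at 0 h (31.2%) and 1 lower (32.9%), and 5 were higher at 12 than at 4 h (29.2%) and 2 lower (31.3%). In mural cells 2 were higher at 4 than at 0 h (22.8%) and 2 lower (22.3%), 2 were higher at 12 than at 0 h (21.6%) and 4 lower (19%), and 1 was higher at 12 than at 4 h (18.3%) and 4 lower (16.1%), a count of 5 that was 3 without mural 4 h replicate 2. The median change of the 9 at 12 against 0 h was 0.9 in cumulus and -0.27 in mural cells, beside -0.09 and -0.05 over all genes. When libraries were scaled by their totals instead, the share of calls that were higher was 41% in cumulus cells at 4 h (52.3% with TMM) and 38.1% at 12 h (48.7%), and 29.1% in mural cells at 4 h (50.6%) and 39.9% at 12 h (53.2%), while the members' counts at 12 h were 6 higher and 1 lower in cumulus and 2 higher and 5 lower in mural cells. Without both cumulus libraries that stand apart, 7 members were higher and 2 lower at 4 than at 0 h in cumulus cells, 8 higher and 1 lower at 12 than at 0 h, and 4 higher and 2 lower at 12 than at 4 h. The 4 h count also depended on single libraries, with 8 members called without cumulus 4 h replicate 3 and 5 without cumulus 4 h replicate 2. With voom, or with only the groups compared in the fit, 2 members were higher and 2 lower at 4 than at 0 h in cumulus cells. At 12 against 4 h in cumulus cells, leaving out 1 of 6 libraries ended the Trib3 call in 5 cases. It ended the Xbp1 and Atf4 calls in 2 cases each. The count there was 4 higher and 1 lower with voom, and 3 higher and 2 lower with only the groups compared. With the oocyte marker sum as a covariate 1 member, Pdia4, was higher at 12 than at 4 h in cumulus cells and 5 were lower, among them Xbp1 (-1.12, adjusted p = 0.032), which is called higher without the covariate (0.51, adjusted p = 0.0164), Hspa5 (-1.09, adjusted p = 0.0385) and Dnajb9 (-1.58, adjusted p = 0.0342).

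Set against mural cells at the same time, 1 of the 9 members was higher and 3 were lower in cumulus cells at 0 h (21.5% and 25.3% of all genes), 5 higher and 2 lower at 4 h (27.6% and 27%), and 7 higher and 0 lower at 12 h (18% and 20.5%). At 0 h the lower ones were Hspa5 (-0.49 ± 0.16, adjusted p = 0.0202), Hsp90b1 (-0.65 ± 0.14, adjusted p = 0.00105) and Pdia4 (-0.79 ± 0.14, adjusted p = 0.000254), and Atf4 was higher (0.47 ± 0.14, adjusted p = 0.011). The Hspa5 call was lost without cumulus 0 h replicate 2 (-0.43, adjusted p = 0.0644) or 3 (-0.39, adjusted p = 0.0862) and without mural 0 h replicate 1 (-0.43, adjusted p = 0.0641), and the Atf4 call without cumulus 0 h replicate 1 (0.34, adjusted p = 0.0664). At 4 h Sdf2l1, Herpud1, Xbp1, Atf4 and Trib3 were higher in cumulus cells, and Hsp90b1 and Pdia4 lower. Leaving out 1 of the 6 libraries ended the Xbp1 call at 4 h in 5 cases and the Herpud1 call in 1. With voom, or with only the groups compared in the fit, 3 members were higher and 2 lower at 4 h. At 12 h cumulus cells were higher in Hspa5 (0.81 ± 0.16, adjusted p = 0.000717), Hsp90b1 (0.8 ± 0.14, adjusted p = 0.000219), Pdia4 (0.89 ± 0.14, adjusted p = 9.97e-05), Sdf2l1 (1.61 ± 0.14, adjusted p = 6.13e-08), Dnajb9, Xbp1 and Trib3. Each of the 7 kept its call without any 1 of the 6 libraries. With the oocyte marker sum as a covariate 1 of the 7 was called, Sdf2l1 (1.05, adjusted p = 0.00131). In that fit Hspa5 was at 0.05, Hsp90b1 at 0.18, Pdia4 at 0.22, Dnajb9 at -0.12, Xbp1 at 0.56 and Trib3 at 1.35 (adjusted p = 0.065 to 0.909). At 0 h the covariate fit had 2 members higher and 2 lower, and Hspa5 lost its call (-0.16, adjusted p = 0.392). At 4 h the same fit had 5 higher and 0 lower, with Hsp90b1 (-0.12) and Pdia4 (-0.05) no longer called. Without both cumulus libraries that stand apart, 1 member was higher and 5 were lower in cumulus cells at 0 h, and 5 were higher and 2 lower at 4 h. Herpud1 (0.16 ± 0.15, adjusted p = 0.442) and Atf4 (0.35 ± 0.14, adjusted p = 0.06) were not called at 12 h.

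The difference between the cell types' changes was itself tested. From 0 to 12 h, 7 of the 9 members had a more positive change in cumulus cells (20.1% of all genes) and 0 a more negative one (20% of all genes). Those were Xbp1 (1.81 ± 0.25, adjusted p = 1.81e-05), Sdf2l1 (1.69 ± 0.19, adjusted p = 2.34e-06), Pdia4 (1.68 ± 0.2, adjusted p = 5.8e-06), Hsp90b1 (1.45 ± 0.2, adjusted p = 2.03e-05), Hspa5 (1.29 ± 0.23, adjusted p = 0.000244), Dnajb9 (1.18 ± 0.31, adjusted p = 0.00519) and Trib3 (1.18 ± 0.39, adjusted p = 0.0221). The first 6 kept their calls when any 1 of 12 libraries was left out. Trib3 lost its call without cumulus 0 h replicate 3 (1.1, adjusted p = 0.0506), mural 0 h replicate 1 (1.05, adjusted p = 0.0624) or 2 (1.1, adjusted p = 0.0523), or mural 12 h replicate 3 (0.96, adjusted p = 0.0801). From 0 to 4 h, 2 members were called, Xbp1 (0.77 ± 0.24, adjusted p = 0.0433) and Trib3 (1.22 ± 0.39, adjusted p = 0.0457), where 6.78% of all genes changed more positively and 7.26% more negatively in cumulus cells. Both 4 h calls were close to the threshold. Leaving out 1 of the 12 libraries ended the Xbp1 call in 9 cases and the Trib3 call in 7, and the count of called members ranged from 0, for example without cumulus 0 h replicate 3, to 4 without cumulus 4 h replicate 3. Without both cumulus libraries that stand apart, 6 members were called more positive to 4 h and 7 to 12 h, and 0 more negative at either time.

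Within the cumulus groups of 0 h and of 4 h, levels of several members tended to run opposite to the oocyte marker sum. At 0 h replicate 1 had the lowest sum (460 CPM) and the highest Hspa5, Hsp90b1, Pdia4, Sdf2l1, Dnajb9, Herpud1, Xbp1 and Atf4 of its group. At 4 h replicate 3 had the highest sum (8087 CPM) and the lowest level of those same 8 genes. Between 12 and 0 h the cumulus sums do not overlap, so time and oocyte RNA cannot be told apart within cumulus cells. A covariate for the sum has 1 slope for all groups, which rests on differences within groups. The lowest sum outside the cumulus 12 h group was 143 CPM, so values for that group in the covariate fit are extrapolated. They show how the calls depend on the model, and are not levels freed of oocyte RNA. With the log2 sum as a covariate in the fit, 1 member was higher and 1 lower at 12 against 0 h in cumulus cells, Pdia4 (1.88) and Herpud1 (-2.56), while Hsp90b1 (-0.08), Atf4 (-0.12) and Dnajb9 (-0.57) turned sign and lost their calls, and Xbp1 (0.15) and Trib3 (0.98) lost theirs. In the same fit the mural changes at 12 h were close to those above, with Hspa5 at -1.03, Hsp90b1 at -0.64, Pdia4 at 1.16, Sdf2l1 at -1.44 and Herpud1 at -1.58. Of the differences between the cell types' changes to 12 h, that of Sdf2l1 (0.87) was still called (adjusted p = 0.0454) as more positive in cumulus cells, those of Herpud1 (-0.98) and Atf4 (-1.07) were called as more negative, and that of Hspa5 was 0.21 (adjusted p = 0.693).

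**Figure D4:**
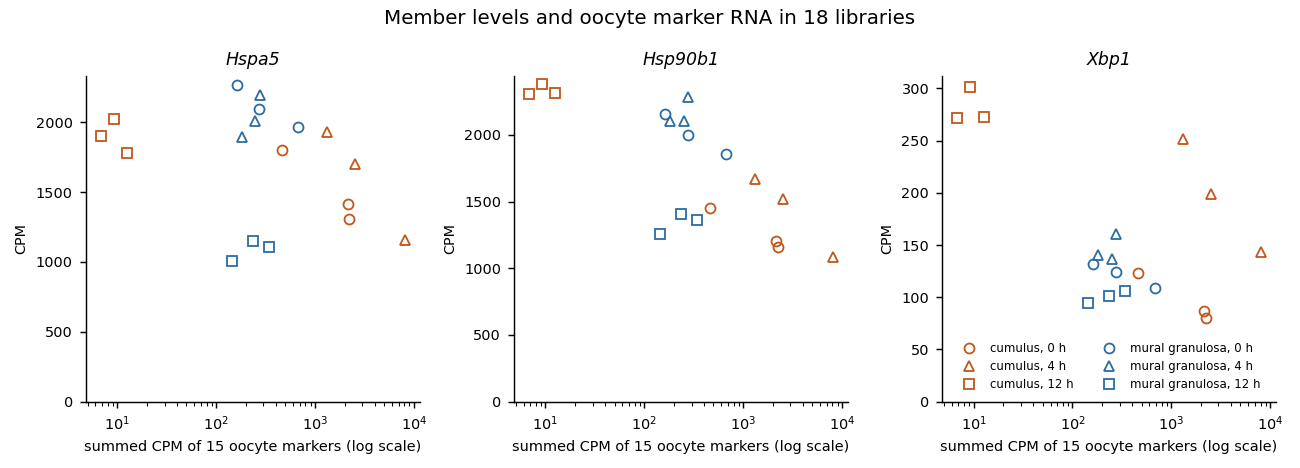
Level (CPM, linear axis from 0) of Hspa5, Hsp90b1 and Xbp1 against the summed CPM of 15 oocyte markers (log axis) in the 18 libraries, by cell type (colour) and hours after hCG (symbol). Cumulus libraries of 12 h stand alone at 6.79 to 12.6 CPM of oocyte markers, and within the cumulus 0 h and 4 h groups the libraries with more oocyte RNA have lower levels.

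Per kb of exon, the order of the members' mean levels also differed by group. Exon length is the union of all annotated exons of a gene, so the order between genes depends on the annotation. In mural cells at 0 h Hspa5 (499.6 CPM per kb) and Hsp90b1 (497) led Pdia4 (233), with Sdf2l1 (49.8), Atf4 (48.6), Xbp1 (37.4), Herpud1 (30.2), Dnajb9 (12.2) and Trib3 (0.752) below. In cumulus cells at 12 h Pdia4 (1013 CPM per kb) led Hsp90b1 (579) and Hspa5 (449.9), and Atf4 (126) and Xbp1 (86.8) stood above Sdf2l1 (57.9), Dnajb9 (21.2), Herpud1 (11.8) and Trib3 (3.23).

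Other genes of the ER were followed through lists taken from textbook knowledge, none of which holds a member. The lists were chosen with earlier results of these data known, so they are not independent support for the members' pattern. Of 17 further ER chaperones and folding enzymes, 12 were higher and 2 lower in cumulus cells at 12 against 0 h (median 0.7, beside -0.09 over all genes), and 1 was higher and 13 lower in mural cells (median -0.48, beside -0.05). Shares of all genes called higher and lower were 31.2% and 32.9% in cumulus cells, and 21.6% and 19% in mural cells. Hyou1, a large BiP partner that helps exchange its nucleotide, averaged 1323 ± 63.1 CPM at 12 h against 369 ± 46.4 CPM at 0 h in cumulus cells, and 645 ± 41.7 CPM against 938 ± 81.5 CPM in mural cells (SD, n = 3 each). It rose by 1.84 ± 0.13 in cumulus cells (adjusted p = 7.91e-10) and fell by 0.54 ± 0.12 in mural cells (adjusted p = 0.00172). The lectin chaperone Calr, named here after its values were seen, rose by 1.09 ± 0.12 in cumulus cells (adjusted p = 5.35e-07) and fell by 0.7 ± 0.12 in mural cells (adjusted p = 0.000152). Creld2, a disulfide isomerase, fell by 1.32 ± 0.1 in mural cells (adjusted p = 8.8e-09), and its change in cumulus cells, 0.05 ± 0.1, was not called (adjusted p = 0.691). Sil1, the other nucleotide exchange factor of BiP, fell in both, by 1.37 ± 0.1 in cumulus (adjusted p = 2.9e-09) and by 1.07 ± 0.1 in mural cells (adjusted p = 1.39e-07). The change to 12 h was more positive in cumulus cells for 14 of the 17 (20.1% of all genes) and more negative for 0 (20%). With the oocyte sum as a covariate, 3 were higher and 4 lower in cumulus cells at 12 h, the change was more positive in cumulus cells for 8 and more negative for 1, and the mural count was again 1 higher and 13 lower.

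ER-associated degradation returns misfolded proteins to the cytosol. Of 15 of its genes, 13 were higher and 1 lower in cumulus cells at 12 against 0 h (31.2% and 32.9% of all genes). In mural cells 4 were higher and 6 lower (21.6% and 19% of all genes). The medians of the 15 were 0.93 in cumulus and -0.17 in mural cells. Edem1, which trims sugars on misfolded glycoproteins, rose by 1.97 ± 0.13 in cumulus cells (adjusted p = 5.01e-10), where it averaged 263 ± 9.65 CPM at 12 h against 66.9 ± 8.82 CPM at 0 h (SD, n = 3 each). The channel gene Derl1 reached 536 ± 94.7 CPM at 4 h in mural cells, against 114 ± 7.14 CPM at 0 h (SD, n = 3 each; 2.23 ± 0.18, adjusted p = 1.09e-08), and rose by 1.73 ± 0.17 at 12 h in cumulus cells (adjusted p = 9.95e-08). Its paralog Derl3 fell at 12 h by 1.5 ± 0.17 in cumulus (adjusted p = 3.81e-07) and by 0.97 ± 0.16 in mural cells (adjusted p = 0.000103). Sel1l, which holds the degradation complex together, fell in mural cells at 4 h (-1.07 ± 0.11, adjusted p = 2.59e-07) and 12 h (-0.65 ± 0.11, adjusted p = 8.41e-05). With the oocyte sum as a covariate the cumulus count at 12 h was 3 higher and 1 lower, and the cumulus changes of Derl1 (0.61, adjusted p = 0.222) and Derl3 (-0.89, adjusted p = 0.104) lost their calls.

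Of 12 sensors and transducers, 7 were higher and 2 lower in cumulus cells at 12 against 0 h (31.2% and 32.9% of all genes). In mural cells 5 were higher and 4 lower (21.6% and 19% of all genes). Their median changes were 0.5 in cumulus and 0.35 in mural cells, beside -0.09 and -0.05 over all genes. Time and oocyte RNA cannot be told apart in these cumulus changes either. Creb3l1, an ER membrane transcription factor linked to collagen secretion, averaged 127 ± 38 CPM at 4 h and 175 ± 24.5 CPM at 12 h, against 1.11 ± 0.347 CPM at 0 h, in cumulus cells (SD, n = 3 each). In mural cells it averaged 44.1 ± 2.84 and 55.3 ± 3.14 CPM at 4 and 12 h against 5.19 ± 1.21 CPM at 0 h (SD, n = 3 each). Its rise at 12 h was 7.3 ± 0.28 in cumulus (adjusted p = 4.59e-13) and 3.41 ± 0.22 in mural cells (adjusted p = 1.2e-09). Its relative Creb3 rose in both cell types as well, by 2.16 ± 0.12 in cumulus (adjusted p = 3.2e-11) and by 2.37 ± 0.12 in mural cells (adjusted p = 2.51e-11). The sensor Ern1 rose at 4 h by 1.43 ± 0.24 in cumulus cells (adjusted p = 8.74e-05) and by 1 ± 0.24 in mural cells (adjusted p = 0.0022). Its cumulus libraries at 4 h had 366, 325 and 728 CPM, the last being the library with the highest oocyte sum. The sensor Eif2ak3 fell in mural cells at 12 h by 0.99 ± 0.16 (adjusted p = 5.48e-05).

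Of 26 targets of ATF4 and CHOP, 18 were higher and 1 lower at 4 against 0 h in cumulus cells (median 0.64, beside 0.13 over all genes), and 16 higher and 3 lower in mural cells (median 0.39, beside -0.06). At 12 h 14 were higher and 6 lower in cumulus cells, and 11 higher and 3 lower in mural cells. Shares of all genes called higher and lower at 4 h were 25% and 22.8% in cumulus cells, and 22.8% and 22.3% in mural cells. By 12 h these shares were 31.2% and 32.9% in cumulus cells, and 21.6% and 19% in mural cells. For this list too, time and oocyte RNA cannot be told apart in the cumulus changes at 12 h. The stress factor Nupr1 averaged 565 ± 21.3 CPM at 4 h and 1345 ± 119 CPM at 12 h, against 26.8 ± 3.84 CPM at 0 h, in cumulus cells (SD, n = 3 each), a rise of 5.65 ± 0.13 at 12 h (adjusted p = 4.01e-15). In mural cells it averaged 107 ± 6.86 and 113 ± 6.08 CPM against 11 ± 0.653 CPM (SD, n = 3 each; 3.37 ± 0.12, adjusted p = 5.14e-13). Psat1, an enzyme of serine synthesis, peaked at 4 h in cumulus cells at 97.5 ± 30 CPM, against 23.1 ± 3.58 CPM at 0 h (SD, n = 3 each; 2.08 ± 0.17, adjusted p = 1.63e-08), and was at 15.8 ± 0.686 CPM at 12 h. Aldh18a1, an enzyme of proline synthesis, fell at 12 h in cumulus cells (-1.21 ± 0.12, adjusted p = 1.2e-07), and Pck2, the mitochondrial phosphoenolpyruvate carboxykinase, fell in mural cells (-1.13 ± 0.13, adjusted p = 8.11e-07). The death-promoting gene Bbc3 rose in cumulus cells at 12 h by 3.53 ± 0.24 (adjusted p = 5.26e-10), with 17.9 ± 1.23 CPM against 1.55 ± 0.436 CPM at 0 h (SD, n = 3 each).

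**Figure D5:**
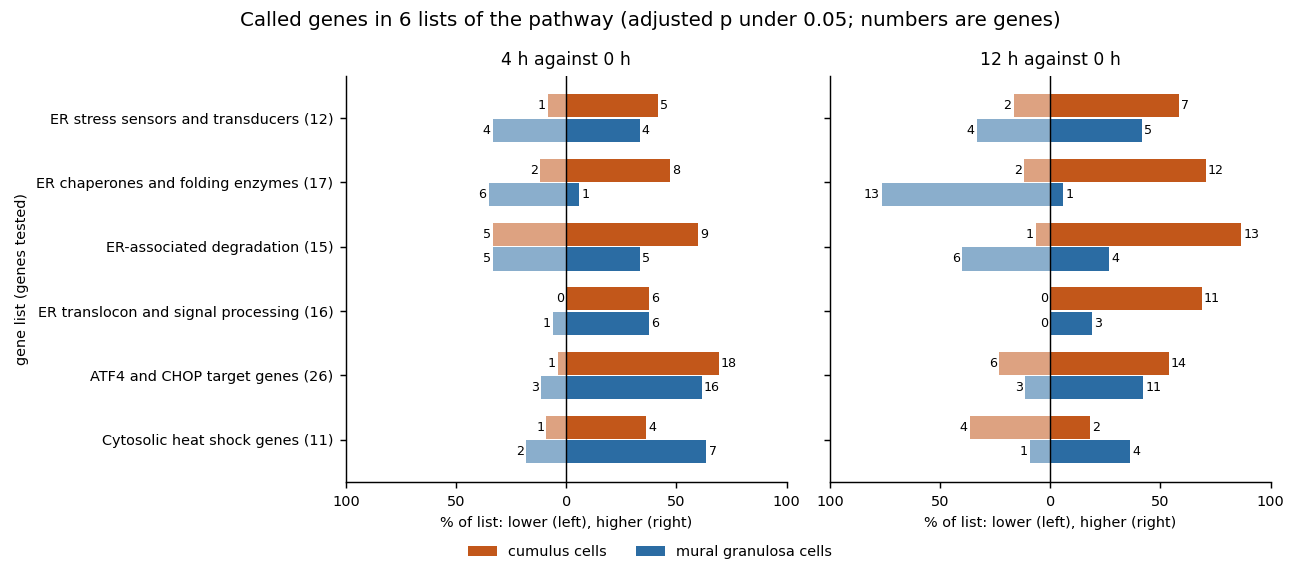
Share of each of 6 gene lists (genes tested in brackets) that was called higher (right of 0) or lower (left of 0, paler) than at 0 h, at 4 h (left panel) and 12 h (right panel), with cumulus bars above mural bars and the number of genes at each bar's end. At 12 h the ER chaperones show 12 higher and 2 lower in cumulus cells, and 1 higher and 13 lower in mural cells. Among all genes, 31.2% were higher and 32.9% lower at 12 h in cumulus cells, and 21.6% and 19% in mural cells.

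The members did not follow 1 common course. Over the 18 libraries, which share groups and scaling, Pearson's r of log2(CPM + 1) was 0.84 between Hspa5 and Hsp90b1 and 0.88 between Dnajb9 and Xbp1, but -0.03 between Hspa5 and Pdia4, -0.07 between Hspa5 and Atf4, and -0.65 between Herpud1 and Pdia4. The genes most like Hspa5 by this measure, among those averaging at least 20 CPM, were Rcn1 (r = 0.916), which encodes a calcium-binding protein of the ER lumen, Clstn2 (0.911), Maged1 (0.891), Sin3b (0.886) and Lca5 (0.885). Those most like Atf4 were the transcription factor gene Cebpa (r = 0.979), the immediate early gene Ier2 (0.973), Stk40 (0.972), the proton pump subunit Atp6v0c (0.972) and the asparaginyl-tRNA synthetase Nars (0.969). With only 6 groups behind 18 libraries, these values describe likeness of pattern and carry no test.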

How the data were processed

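Total RNA from cumulus and mural granulosa cells was made into stranded libraries from polyadenylated RNA and sequenced on an Illumina NovaSeq 6000, per the labels' protocols and the series' design text. The authors aligned and counted reads in CLC Genomics Workbench with default parameters, per the series' design text, on GRCm38, per the submitters' processing notes. No source used here gives its version, annotation or strand setting. The deposited table, titled as unique gene reads, holds raw whole-number counts per gene for the 18 libraries, and no entry lacked a name.

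The counts were tested with edgeR 4.0.16 under R 4.3.3. Genes were kept by edgeR's filter with a minimum count of 10 (19941 genes, 99.96% of reads) and scaled by TMM (factors 0.849 to 1.177). One robust quasi-likelihood fit with 6 group means gave 11 comparisons: 3 pairs of times in each cell type, cumulus against mural cells at every time, and how far their changes from 0 h differed. Benjamini-Hochberg adjustment ran over all genes tested, with a threshold of 0.05. The fit was tested on simulated data. A count of 0 would allow up to 3 counts, 0.0585 to 0.0999 CPM by library, counting error only.

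The lowest chi-square per degree of freedom between libraries of one group was 8.35, so none was a duplicate. Positions and exon lengths (the union of a gene's annotated exons) come from GENCODE M21 (GRCm38), promoters from RefSeq (GRCm38.p6). Named genes are the members in every comparison, up to 2 called genes of largest change in each direction per list (6 lists, 97 genes) for 4 and 12 h against 0 h in each cell type (10 CPM or more where higher), and the 5 genes most like Hspa5 and Atf4 with at least 20 CPM. Calr was added after its values were seen, and genes named by the rule are also given in other comparisons. Members and lists were chosen with earlier results of these data known. Alternatives were library totals, DESeq2 1.42.0 size factors and Wald test, no filter, voom (limma 3.58.1) with a spread per group, only the groups compared, a replicate block, the oocyte marker sum as a covariate, and left-out libraries. Summing the Ddit3 entries was added after the table was seen, and the 2 cumulus libraries left out together were picked from earlier results of these data.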

Additional observations from a re-analysis of the deposited data

Results flagged for a closer look

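The difference between the changes in cumulus and mural cells was tested for each member and each Ddit3 entry, and the called values are set out here because the cell types moved differently. From 0 to 12 h the log2 difference, cumulus minus mural, was 1.29 for Hspa5, 1.45 for Hsp90b1, 1.68 for Pdia4, 1.69 for Sdf2l1, 1.18 for Dnajb9, 1.81 for Xbp1, 1.18 for Trib3, 0.97 for Ddit3_1 and 1.63 for Ddit3_2. The 2 Ddit3 values had adjusted p = 0.0103 and 0.00013 in edgeR's quasi-likelihood test, and both calls held when any 1 of the 12 libraries was left out. From 0 to 4 h it was 0.77 for Xbp1, 1.22 for Trib3 and 0.82 for Ddit3_2 (adjusted p = 0.048). The 4 h value of Ddit3_2 lost its call in 8 of the 12 fits that left out 1 library. Cumulus libraries of 12 h also had the lowest oocyte marker sums of the series.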

How the results depend on the processing

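With the oocyte marker sum as a covariate, 2 members were called in cumulus cells at 12 against 0 h (7 without it), 1 between the cell types at 12 h (7), 4 for the difference between the changes to 4 h (2) and 3 for that to 12 h (7). Results of this fit that use cumulus cells at 12 h are extrapolated, because no other library had so low a sum. Genes called then numbered 6703 in cumulus cells at 12 against 0 h (12796), 4290 at 12 against 4 h (12065), 5662 between the cell types at 4 h (10876) and 4835 for the difference to 12 h (8003). The log2 changes that turned sign with this covariate were, in cumulus cells at 12 against 0 h, Hspa5 -0.82, Hsp90b1 -0.08, Sdf2l1 -0.57, Dnajb9 -0.57, Atf4 -0.12, Spcs3 -0.22 and Hsp90ab1 -0.62, and at 12 against 4 h Hspa5 -1.09, Hsp90b1 -0.39, Sdf2l1 -0.04, Dnajb9 -1.58, Xbp1 -1.12 and Trib3 -0.01. Between cumulus and mural cells they were Sdf2l1 0.18, Dnajb9 0.21 and Xbp1 0.06 at 0 h, Hspa5 0.22, Dnajb9 0.64 and Ddit3_1 -0.23 at 4 h, and Dnajb9 -0.12, Herpud1 -0.55 and Atf4 -0.31 at 12 h, and for the difference to 12 h Dnajb9 -0.33 and Herpud1 -0.98.

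For the difference to 4 h, 4 members were called with library totals, 1 with no filter on low counts, 1 with voom, 0 with only the groups compared and 6 without both cumulus libraries that stand apart, against 2. Genes called there were 1618 with voom and 1564 with only the groups compared, against 2800, and in cumulus cells at 4 against 0 h 6193 with voom and 5509 with only the groups compared, against 9532. Library totals moved the median change of all genes by -0.32 in mural cells at 4 h, where 29.1% of calls were then higher against 50.6% with TMM, and by -0.25 in cumulus cells at 12 h. With them Hsp90b1 was -0.21, Xbp1 -0.06, Ddit3_1 -0.01 and Ddit3_2 -0.19 in mural cells at 4 h, and Hspa5 -0.06 and Pdia4 -0.02 in cumulus cells at 4 h. The difference to 12 h for Herpud1 was -0.03 with library totals and -0.02 with DESeq2 size factors or its Wald test. Dnajb9 between the cell types at 4 h was 0.09 without both cumulus libraries. None of the values that turned sign here passed the threshold in the TMM fit, except those listed for the covariate, and the cause was not tested.

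Leaving out 1 library gave 3 to 5 called members in mural cells at 12 against 4 h, and for the difference to 4 h 0 to 4 members and 2037 to 4272 genes, the most without cumulus 4 h replicate 2. Sign changes lay within ranges of -0.1 to 0.23 for Ddit3_2 in mural cells at 4 h, -0.08 to 0.28 for Hspa5 in cumulus cells at 4 h, -0.09 to 0.3 for Ddit3_1 in cumulus cells at 12 against 4 h, -0.21 to 0.03 for Sdf2l1 between the cell types at 0 h and -0.35 to 0.15 for Dnajb9 at 4 h. For the difference to 4 h they were -0.02 to 0.37 for Hspa5, -0.08 to 0.26 for Hsp90b1, -0.1 to 0.38 for Dnajb9 and -0.08 to 0.21 for Atf4, and for that to 12 h -0.05 to 0.13 for Herpud1.

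Same-numbered libraries did not deviate together throughout (correlations -0.29 to 0.37), so the numbers were not taken as pairs. With a replicate block 8 members and 12777 genes were called in cumulus cells at 12 against 0 h (7 and 12796 without it), 8 and 7891 between the cell types at 12 h (7 and 7680), 6 and 7017 in mural cells at 12 against 4 h (5 and 6873) and 3 and 2934 for the difference to 4 h (2 and 2800). Depth limits Trib3 most, with as few as 30 counts in a library.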

Other observations

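Of 16 genes of the ER translocon and signal peptide processing, through which secreted proteins enter the ER, 11 were higher and 0 lower in cumulus cells at 12 against 0 h in edgeR's quasi-likelihood test (median 0.47), and 3 were higher and 0 lower in mural cells (median 0.03). Shares of all genes called higher and lower were 31.2% and 32.9% in cumulus cells, and 21.6% and 19% in mural cells. Ssr2, a translocon-associated protein, rose by 1.01 ± 0.12 (adjusted p = 9.73e-07) and Spcs3, a signal peptidase subunit, by 1.04 ± 0.15 (adjusted p = 8.97e-06) in cumulus cells. With the oocyte marker sum as a covariate 0 of the 16 were higher and 3 lower there, and Ssr2 was at 0.12 (adjusted p = 0.743).

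Of 11 cytosolic heat shock genes, which serve folding outside the ER, 7 were higher and 2 lower in mural cells at 4 against 0 h (median 0.66), and 2 were higher and 4 lower in cumulus cells at 12 against 0 h (median -0.21). Shares of all genes called higher and lower were 22.8% and 22.3% in that mural comparison, and 31.2% and 32.9% in that cumulus comparison. In the latter, time and oocyte RNA cannot be told apart. Hsph1, which assists Hsp70, averaged 405 CPM at 4 h against 145 CPM at 0 h in mural cells (1.48 ± 0.15, adjusted p = 3e-07). Hspa1b, the inducible Hsp70, averaged 4.28 CPM against 20.8 CPM (-2.28 ± 0.3, adjusted p = 5.73e-06). Hspb1, a small heat shock protein, rose at 12 h by 3.28 ± 0.36 in cumulus (adjusted p = 4.38e-07) and by 3.48 ± 0.36 in mural cells (adjusted p = 3.68e-07). Hspa1b has a near-identical neighbour, Hspa1a. The counts are titled as unique gene reads, so reads that match both genes may be missing.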
